A study of Mus musculus with 35 samples.

Results

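The livers compared here came from 4 C57Bl6 mice injected once with diethylnitrosamine (DEN) and harvested at day 133, and from 5 untreated C57Bl6 mice harvested at day 260, together 9 of the 21 mice in the series. They were taken as all raw count columns that the sample labels place in these groups. The DEN mice (called P133 mice 1 to 4) had received a single intraperitoneal dose of 25 mg/kg at postnatal day 14 and no antisense oligonucleotide. The untreated mice (untreated mice 1 to 5) received neither agent. All mice were kept on standard chow under a light and dark cycle. RNA of liver pieces was sequenced from the 3' ends of transcripts, so each library is a mixture of all cells of the piece. The other mice of the series, 6 with a control ASO and 6 with an ASO against Smyd3, a lysine methyltransferase, had the same DEN injection. They received their ASO from day 133 to day 260 and are used here only to place levels. The groups compared differ in DEN, in age and in anything else that differed between the harvests. The sample labels give neither sex nor clock time of harvest. DEN, harvest day and time of day therefore cannot be told apart in any result that follows.

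DEN is a carcinogen that hepatocyte cytochromes P450 convert to a DNA-alkylating agent. Given to young mice, whose hepatocytes still divide, it leads over months from small lesions to hepatocellular tumours. The liver also runs a strong circadian clock. In it the activators Arntl (Bmal1) and Clock drive the repressors Per, Cry and Nr1d1 (Rev-erb alpha), and Nr1d1 in turn represses Arntl, so the activator and Nr1d1 arms peak at opposite times of day. Cholesterol synthesis is controlled by SREBP2 and feeding, and heat shock genes by the factor HSF1.

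Library totals were 4556484 to 6447397 counts in the P133 mice and 10186780 to 13116012 in the untreated mice. The 10 most abundant genes held 17.4 to 19.1% of the counts in P133 mice and 24.9 to 32.2% in untreated mice. Levels are depth-normalised counts (CPM), scaled by TMM over all 21 mice. Of 15297 genes tested with edgeR's quasi-likelihood test (Benjamini-Hochberg adjusted p under 0.05, called rose or fell from here on), 2306 rose in P133 livers and 2533 fell, 31.6% in all (15.1% higher, 16.6% lower). The groups did not overlap, with P133 higher, for 12.6% of all genes, and with P133 lower for 14.5%. At least a 2-fold change was seen for 1021 of the genes that rose and 1272 of those that fell. Scaling by library totals instead gave 6471 higher and 821 lower, and moved the median log2 change of all genes from 0.00 to 0.59. Changes are given relative to the TMM scale. Counts given below under library totals are to be read beside 6471 and 821 of 15297 genes, not beside 15.1% and 16.6%. Smyd3 itself had 5.47, 4.58, 2.66 and 4.27 CPM in P133 mice and 2.36 to 5.08 CPM in untreated mice, and did not pass the test (log2 0.16, SE 0.29, edgeR adjusted p = 0.694).

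Both groups hold a library that stood apart. Untreated mouse 5 had Saa1, an acute-phase protein, at 30551 CPM, against 124 to 697 CPM in the other untreated mice. Its level of Lcn2, an iron-binding acute-phase protein, was 3235 CPM against 10.7 to 15.4, and that of Hp (haptoglobin) was 43957 CPM against 1557 to 3262. P133 mouse 4 had the fat cell genes Adipoq at 7.9 CPM, Plin1 at 21.5 CPM and Cfd at 26.1 CPM. The other P133 mice had 0 to 1.26, 0.444 to 8.14 and 3.79 to 11 CPM of these genes. Without both mice, 1964 genes were higher and 2272 lower. The RNA of the groups also differed in kind. With genes cut into 5 bins by GC content of the last 500 transcript bases, the highest bin had a median log2 change of -0.27 and the lowest 0.20, a Spearman correlation across 15297 genes of -0.21, and genes are not independent replicates. The nuclear non-coding RNAs Malat1 and Neat1 rose by log2 2.29 (SE 0.23) and 2.17 (SE 0.32). Gm42418, a transcript that overlaps the ribosomal RNA repeat, was at 13255, 12892, 8215 and 7702 CPM in P133 mice and at 940.0 to 4239.6 CPM in untreated mice. Of 49 annotated sense intronic RNAs 18 rose and 0 fell, with a median log2 of 1.07. Their summed level overlapped, at 78.9 to 263 CPM in P133 mice and 43.3 to 300.4 CPM in untreated mice. Of 33 miscellaneous small RNAs, a class that includes the 7SL genes, 10 rose and 3 fell (median 1.09). Other classes rose too, such as small nucleolar RNAs (49 rose and 12 fell of 191), while processed pseudogenes mostly fell where called (95 rose and 277 fell of 1178). Over all genes 15.1% rose and 16.6% fell. The part of these differences in the results that follow was not tested. With each gene set against the median of its own GC bin, list medians went from 1.01 to 1.10 (heat shock genes), -0.98 to -0.89 (cholesterol genes), -1.39 to -1.30 (collagens), 0.21 to 0.08 (tumour markers), 0.49 to 0.32 (Ras-MAPK feedback genes) and -0.39 to -0.12 (bile duct markers).

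The sample labels name the P133 tissue as DEN-induced tumours and hepatocellular carcinoma. Afp and Gpc3, often used as markers of such tumours, were not higher at day 133 than in untreated livers. The fetal protein Afp was at 0.21, 2.54, 0.887 and 1.42 CPM in P133 mice and at 2.67 to 5.46 CPM in untreated mice, and fell (log2 -1.57, SE 0.45, edgeR adjusted p = 0.0157). The proteoglycan Gpc3 was at 0 to 1.42 CPM in P133 mice and 0.29 to 1.25 CPM in untreated mice (log2 -0.23, SE 0.79, edgeR adjusted p = 0.846). In the control-ASO DEN livers of day 260, Afp was at 94.3 to 342 CPM and Gpc3 at 34.2 to 148 CPM, higher than at day 133 by log2 7.10 (SE 0.58) and 6.67 (SE 0.79) in the edgeR fit of these groups, where 27% of all genes were called (edgeR adjusted p = 4.57e-05 and 0.000505). ASO treatment and harvest day are joined in that comparison. Of the 23 oncofetal and tumour markers listed, 4 rose, 3 fell and 16 did not pass (median log2 0.21), shares near the 15.1% and 16.6% of all genes. Library totals gave 9 higher and 1 lower, beside 6471 higher and 821 lower of all 15297 genes on that scale. Those that rose were Sox9, a factor of bile duct and progenitor cells (14.2 to 39.8 CPM against 3.44 to 7.23), the drug transporter Abcc4 (3.77 to 6.32 against 0.356 to 1.61 CPM), the carbonyl reductase Cbr3 and the pericyte gene Rgs5. Besides Afp, the RNA-binding protein Igf2bp3 and the matrix phosphoprotein Spp1 fell. Igf2bp3 had 1 count in all P133 mice together and 121 in untreated mice, a ratio of 67.5 with an exact 95% interval of 11.9 to 2687 that covers counting error only. Hepatocyte genes were abundant in every library, with Alb at 25746 to 31018 CPM in P133 mice. Of 10 hepatocyte markers 5 fell and 0 rose, and library totals gave 2 lower and 1 higher. This list shares Alb, Ttr, Serpina1a and others with the list of secreted hepatocyte proteins below. The Y-linked genes Ddx3y, Eif2s3y and Uty were detected in all 9 livers, and of 4 tested sex chromosome genes 2 rose (Uty and Kdm5d).

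The secreted serpin Serpine2 rose (chr1:79794197-79861180, minus strand, mm10). It inhibits thrombin and plasminogen activators. It was at 33.7, 33.6, 28.2 and 37.9 CPM in P133 mice 1 to 4, and at 1.72, 0.711, 1.87, 1.89 and 0.802 CPM in untreated mice 1 to 5. Every P133 mouse lay far above every untreated mouse, with means of 33.3 ± 3.99 (SD, n = 4) and 1.40 ± 0.59 (SD, n = 5). The log2 change was 4.58 (SE 0.24, edgeR adjusted p = 4.33e-08). It was between 4.40 and 4.70 when any single mouse was left out. In control-ASO DEN livers Serpine2 was at 3.87 to 17.7 CPM, and the log2 change from day 133 was -1.75 (SE 0.39, edgeR adjusted p = 0.00848). Of 12 tested genes in the list of serine protease inhibitors of matrix and clotting, 1 (Serpine2) rose and 7 fell (median log2 -0.76). The 12 also include Plat, a plasminogen activator, and Plaur, the urokinase receptor, which are not inhibitors. Over all genes 15.1% rose and 16.6% fell. Without P133 mouse 1, P133 mouse 3 or untreated mouse 4, 4 of the 12 fell. Library totals gave 2 lower and 3 higher, beside 821 lower and 6471 higher of all 15297 genes on that scale. The 7 that fell included Serpinf2 (alpha 2-antiplasmin), Serping1 (the C1 inhibitor) and Serpinf1 (pigment epithelium-derived factor). Serpinf2 had 195 to 233 CPM in P133 mice and 670.5 to 1135 CPM in untreated mice (log2 -2.0, SE 0.17). Serping1 had 585 to 723 against 1596 to 3528 CPM, and Serpinf1 78.5 to 91.4 against 129 to 189 CPM.

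**Figure D1:**
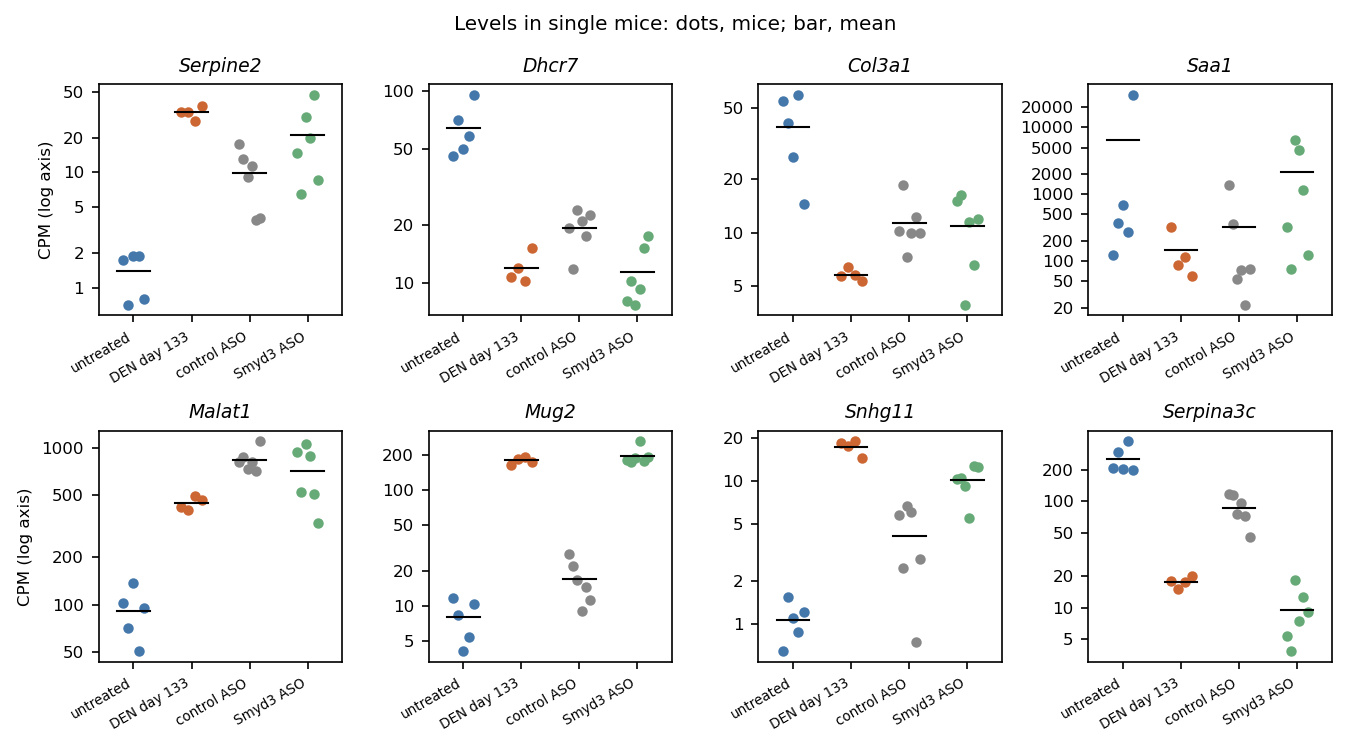
Levels in single mice (CPM, log axes) of 8 genes in untreated, DEN day 133, control-ASO and Smyd3-ASO livers; dots are mice and bars are means. Serpine2 and Malat1 were higher, and Dhcr7 and Col3a1 lower, in all 4 DEN day 133 mice than in all 5 untreated mice, and untreated mouse 5 stood apart in Saa1 at 30551 CPM.

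The clock activators Arntl and Clock rose and the repressor Nr1d1 fell, while Cry1, another repressor, rose. Of 20 tested, 6 rose (among them Arntl, Clock, Cry1, Nfil3 and Rora), 4 fell (Nr1d1, Dbp, Nr1d2 and Bhlhe41) and 10 did not pass, with a median log2 of 0.07. Over all genes 15.1% rose and 16.6% fell, so the share of falls (4 of 20) was near that background. Library totals gave 9 higher and 2 lower, beside 6471 higher and 821 lower of all 15297 genes on that scale. In each of the fits that left out 1 mouse 6 rose. The number that fell was 2 without P133 mouse 1, 2 or 3, and 7 without untreated mouse 5. Nr1d2 and Bhlhe41 were the members lost without P133 mouse 1, 2 or 3, at edgeR adjusted p-values of up to 0.0611 and 0.0643. Values of Arntl were 23.4, 14.6, 9.32 and 8.22 CPM in P133 mice and 0.537, 0.237, 0.468, 0.145 and 1.60 CPM in untreated mice. All P133 mice were above all untreated mice. The fitted log2 change was 4.49 (SE 0.50, edgeR adjusted p = 5.23e-05) and was 5.22 without untreated mouse 5, the untreated mouse with the highest Arntl. Cry1, a repressor of the clock, was at 31.4, 19.8, 21.7 and 20.9 CPM against 2.61 to 3.90 CPM (log2 2.79, SE 0.20, edgeR adjusted p = 2.57e-07). Nfil3, a repressor that binds D-boxes, was at 8.65 to 18.5 CPM against 2.18 to 7.76 CPM (log2 1.59, SE 0.33). Clock, the partner of Arntl, was at 20.4 to 24.3 against 11.5 to 14.3 CPM, and the nuclear receptor Rora, which activates Arntl, rose by log2 0.57 (SE 0.12).

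Nr1d1 was at 1.05, 1.36, 1.11 and 1.90 CPM in P133 mice and at 29.0, 34.1, 38.2, 28.9 and 12.7 CPM in untreated mice. The groups did not overlap, and the lowest untreated mouse was mouse 5. The log2 change was -4.35 (SE 0.35, edgeR adjusted p = 2.72e-06). Dbp, an output factor that binds D-boxes, was at 2.74, 1.53, 1.55 and 8.85 CPM in P133 mice and at 119, 92.1, 118, 105 and 13.0 CPM in untreated mice (log2 -4.55, SE 0.87, edgeR adjusted p = 0.00656). P133 mouse 4 was the highest of its group and untreated mouse 5 the lowest of its own, and without P133 mouse 4 the change was -5.52. Ciart, another repressor, was at 1.33 to 5.37 CPM in P133 mice and 1.74 to 18.9 CPM in untreated mice and did not pass (log2 -2.04, SE 0.72, edgeR adjusted p = 0.0642). The period genes Per1, Per2 and Per3 did not pass either, at log2 -0.41, 0.23 and -0.67. Between the control-ASO livers of day 260 and the P133 livers, Nr1d1, Dbp and Cry1 differed by log2 3.95 (SE 0.57), 4.18 (SE 1.03) and -2.52 (SE 0.28). For Arntl that difference did not pass (-1.53, SE 0.62, edgeR adjusted p = 0.0982). That of Dbp missed the threshold without P133 mouse 1 or 2 (edgeR adjusted p = 0.0508 and 0.0526), and that of Arntl met it without control-ASO mouse 2 (edgeR adjusted p = 0.0499). The control-ASO mice were not alike. Mice 1 and 2 of that group had Dbp at 9.48 and 11.6, Nr1d1 at 9.34 and 7.99 and Arntl at 9.48 and 9.83 CPM. Its mice 3 to 6 had 93.6 to 107, 24.3 to 35.4 and 1.40 to 3.02 CPM, so these fitted changes average over unlike mice.

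**Figure D2:**
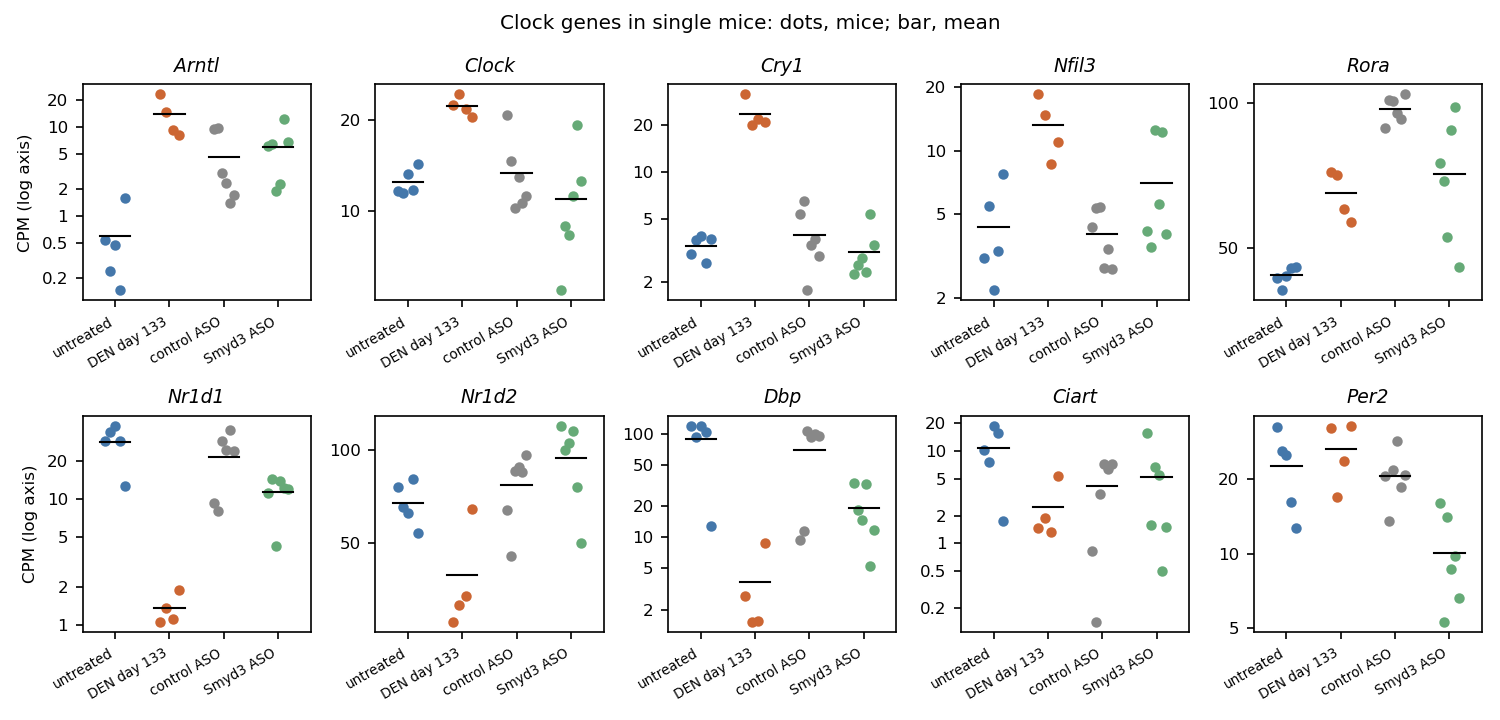
Levels in single mice (CPM, log axes) of 10 clock genes in the 4 groups; dots are mice and bars are means. The top row was higher and Nr1d1 and Dbp were lower in all DEN day 133 mice than in all untreated mice, while Per2 overlapped.

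Letters of the response elements that clock factors bind were searched in RefSeq promoters (GRCm38.p6, 250 bases before to 50 after each start, both strands), and 17 of the 20 clock genes had an entry. The element NTAGGTCA, which ROR receptors and Nr1d1 bind, was found in Arntl and Nfil3, both of which rose, and in 2.95% of 27025 promoters. The E-box CACGTG, which Arntl and Clock bind, was found in Bhlhe41, Ciart, Cry1, Per1 and Tef (29.4% of the 17, and 8.09% of all promoters). Of these Cry1 rose, Bhlhe41 fell and Ciart, Per1 and Tef did not pass. The D-box TTATGTAA was found in Per3, which did not pass (1.11% of all promoters). The promoters of Arntl (chr7:113207261-113207560, plus strand) and Nfil3 (chr13:52980990-52981289, minus strand) are shown because these 2 clock genes hold the element NTAGGTCA. Any part of Nr1d1 or Rora in their rises was not tested. The element is in capitals, beginning 29 bases after the start of Arntl and 12 bases before that of Nfil3, where it is on the opposite strand. A match of letters is a description and not a measured binding site.
Arntl: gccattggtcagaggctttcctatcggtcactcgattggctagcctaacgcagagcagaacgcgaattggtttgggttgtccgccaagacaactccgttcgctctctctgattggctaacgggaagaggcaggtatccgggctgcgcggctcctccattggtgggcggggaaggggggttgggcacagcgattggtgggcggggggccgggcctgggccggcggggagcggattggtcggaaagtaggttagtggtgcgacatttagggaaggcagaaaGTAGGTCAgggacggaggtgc
Nfil3: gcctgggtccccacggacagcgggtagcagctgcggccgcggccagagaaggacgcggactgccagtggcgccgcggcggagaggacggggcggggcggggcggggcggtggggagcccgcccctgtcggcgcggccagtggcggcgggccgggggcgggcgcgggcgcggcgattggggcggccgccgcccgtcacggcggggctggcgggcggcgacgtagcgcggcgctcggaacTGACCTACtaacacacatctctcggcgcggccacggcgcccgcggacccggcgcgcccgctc

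Heat shock genes rose nearly as a group. Of 17 tested, 14 rose, 0 fell and 3 did not pass (median log2 1.01, against 0.00 for all genes), where 15.1% of all genes rose. For 15 the groups did not overlap, where 12.6% of all genes had no overlap with P133 higher. Between 14 and 15 rose in every fit that left out 1 mouse, and 16 with library totals. Hspb1, a small chaperone, was at 83.3, 22.2, 47.2 and 16.4 CPM in P133 mice and at 4.30, 2.37, 3.43, 2.76 and 5.62 CPM in untreated mice. Every P133 mouse was above every untreated mouse, though the P133 mice spread widely. The log2 change was 3.51 (SE 0.54, edgeR adjusted p = 0.00190). Hspa1a, an inducible Hsp70, was at 19.4, 6.11, 3.33 and 9.80 CPM against 0.535 to 1.61 CPM (log2 3.36, SE 0.49, edgeR adjusted p = 0.000314). Hspa1b is a near-identical copy, so reads may be split between them, and it was at 37.3 to 102 CPM against 4.36 to 23.0 CPM. P133 mouse 1 was highest for Hspa1a, Hspa1b and Hspb1. The co-chaperone Dnajb1 was at 64.6, 37.0, 28.6 and 37.0 CPM against 13.4 to 18 CPM (log2 1.39, SE 0.20). The Hsp90 genes Hsp90ab1 and Hsp90aa1 rose by log2 1.01 (SE 0.17) and 1.42 (SE 0.30). Untreated mouse 5 had 388 CPM of Hsp90aa1, just under the lowest P133 mouse at 389 CPM, and the other untreated mice 169.6 to 187 CPM. Chordc1, an Hsp90 partner, was at 29.2 to 41.3 against 15.7 to 19.6 CPM (log2 1.01, SE 0.14). Hsph1, a nucleotide exchange factor, rose by log2 1.5 (SE 0.30), Bag3 by 1.31 (SE 0.22) and the constitutive Hsp70 gene Hspa8 by 0.70 (SE 0.18). The members that did not pass were Ahsa1 (log2 0.92, SE 0.31, edgeR adjusted p = 0.0507), Stip1 (0.21, SE 0.24) and the mitochondrial chaperonin Hspe1 (0.08, SE 0.13). In control-ASO livers against P133 livers 0 of the list rose and 2 fell, Hspd1 (log2 -0.92, SE 0.18) and Ahsa1 (-0.91, SE 0.28). Hspb1 (-1.13, SE 0.53), Hspa1a (-0.48, SE 1.21) and Chordc1 (-0.47, SE 0.18) did not pass in that comparison. Control-ASO mouse 1 stood apart, with Hspa1a at 33.2 CPM and Dnajb1 at 120.7 CPM. The other control-ASO mice had Hspa1a at 0.811 to 1.61 CPM, below every P133 mouse, and Dnajb1 at 10.4 to 29.2 CPM.

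**Figure D3:**
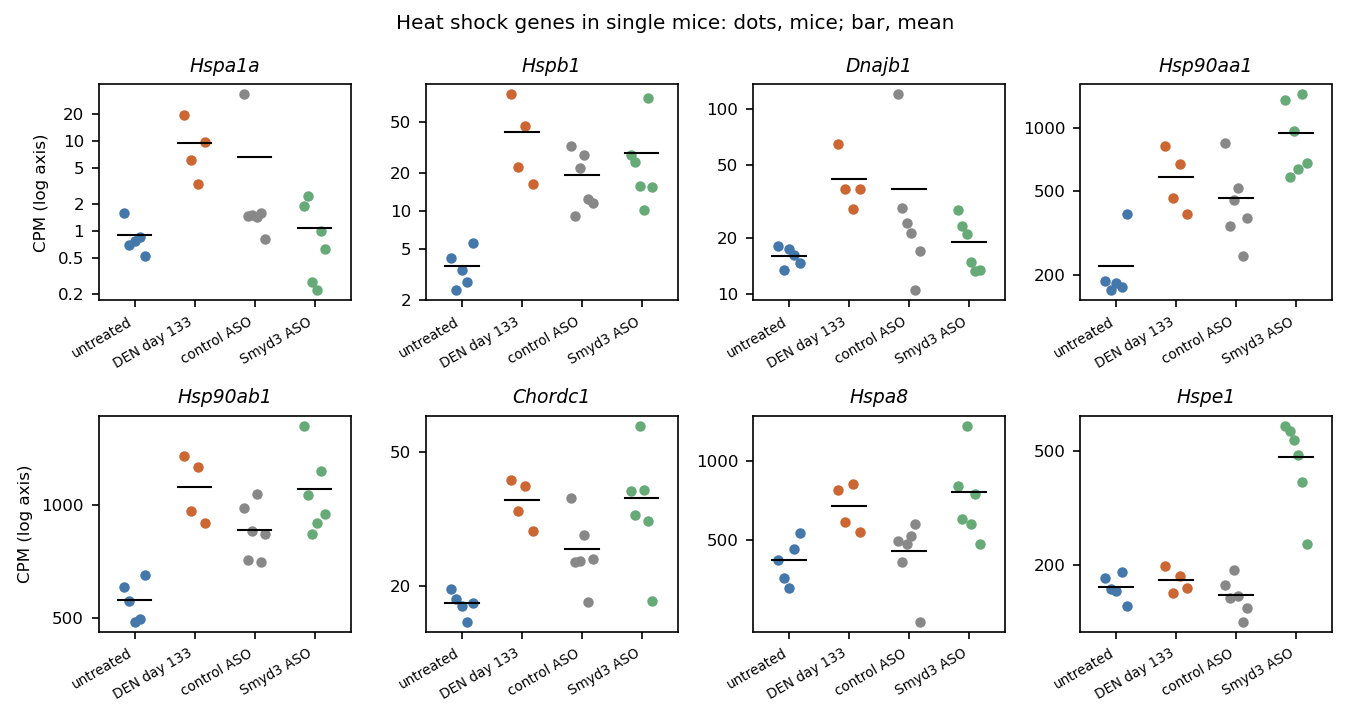
Levels in single mice (CPM, log axes) of 8 heat shock genes in the 4 groups; dots are mice and bars are means. All but Hspe1 were higher in every DEN day 133 mouse than in every untreated mouse.

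A core of the element that HSF1 binds, GAANNTTC, was also searched in the same promoter windows, a motif added after the values were seen; it reads the same on both strands. It was found in 9 of the 14 heat shock genes with an entry (64.3%): Bag3, Chordc1, Dnaja1, Hspa1a, Hspa1b, Hspb1, Hspd1, Hspe1 and Hsph1. It was found in 9.04% of all 27025 promoters. Hspe1 holds it and did not pass the test. The promoters of 3 genes that rose are shown with the core in capitals: Hspb1 (chr5:135887669-135887968, plus strand), where cores begin 117 and 97 bases before the start, Hspa1a (chr17:34972107-34972406, minus strand), 104 bases before it, and Chordc1 (chr9:18292017-18292316, plus strand), 4 bases before and 6 after it.
Hspb1: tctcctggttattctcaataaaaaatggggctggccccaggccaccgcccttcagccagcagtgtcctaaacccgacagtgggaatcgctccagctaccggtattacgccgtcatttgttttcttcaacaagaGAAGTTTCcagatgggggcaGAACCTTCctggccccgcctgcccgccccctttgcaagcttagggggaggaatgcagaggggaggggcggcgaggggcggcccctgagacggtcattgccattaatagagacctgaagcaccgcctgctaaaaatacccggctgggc
Hspa1a: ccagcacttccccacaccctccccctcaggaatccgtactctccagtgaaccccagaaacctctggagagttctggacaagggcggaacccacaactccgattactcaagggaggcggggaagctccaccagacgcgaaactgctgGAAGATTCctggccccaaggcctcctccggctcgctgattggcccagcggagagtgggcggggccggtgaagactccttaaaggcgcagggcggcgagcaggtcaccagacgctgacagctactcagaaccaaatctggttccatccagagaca
Chordc1: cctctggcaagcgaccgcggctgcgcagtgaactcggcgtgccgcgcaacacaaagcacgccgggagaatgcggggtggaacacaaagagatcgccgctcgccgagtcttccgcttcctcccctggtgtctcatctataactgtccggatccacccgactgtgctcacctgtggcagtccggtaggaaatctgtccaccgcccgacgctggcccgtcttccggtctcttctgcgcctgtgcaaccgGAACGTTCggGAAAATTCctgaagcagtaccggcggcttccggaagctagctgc

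Genes of cholesterol synthesis fell. Of 25 tested, 14 fell, 0 rose and 11 did not pass, with a median log2 of -0.98, where 16.6% of all genes fell. The count was 12 to 15 in the fits that left out 1 mouse and 8, with 3 higher, under library totals (list median -0.37 beside 0.59 for all genes). Dhcr7, which makes cholesterol from 7-dehydrocholesterol, was at 10.7, 11.9, 10.2 and 15.2 CPM in P133 mice and 46.0, 70.5, 49.9, 58.2 and 95.8 CPM in untreated mice. The groups were far apart, with means of 12.0 ± 2.23 (SD, n = 4) and 64.1 ± 20.1 (SD, n = 5), and the log2 change was -2.41 (SE 0.22, edgeR adjusted p = 3.59e-06). Early in the pathway, mevalonate kinase (Mvk) was at 11.2, 7.29, 6.88 and 6.95 CPM against 19.0 to 25.8 CPM (log2 -1.43, SE 0.18). The squalene enzymes Fdft1 and Sqle fell by log2 -1.12 (SE 0.16) and -1.75 (SE 0.43). Of the C4-demethylating enzymes, Nsdhl was at 13.5 to 22.5 against 33.3 to 74.4 CPM (log2 -1.51, SE 0.21) and Msmo1 at 100.4 to 134 against 182 to 356 CPM (log2 -1.22, SE 0.18). Untreated mouse 5 had the highest Hmgcs1 and Sqle of its group, at 497 and 62.7 CPM, and without it 13 of the 25 fell. Against P133 livers, control-ASO livers had 8 of the 25 higher and 0 lower, with Dhcr7 at log2 0.68 (SE 0.20) and Mvk at 1.17 (SE 0.23). In RefSeq promoters the sterol element TCACNCCAC was found in Hmgcs1 alone of 17 members with an entry, beside 1.44% of all promoters.

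**Figure D4:**
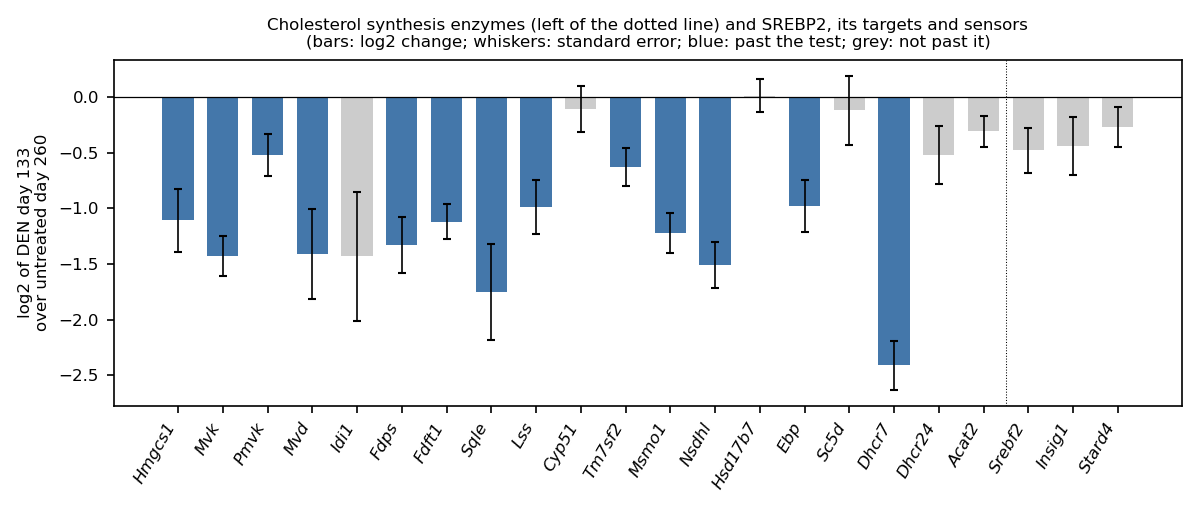
Log2 change of DEN day 133 over untreated livers for 22 of the 25 genes of cholesterol synthesis and its control, in pathway order; whiskers are standard errors and blue bars passed the test. Dhcr7 had the largest fall of the list at -2.41.

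Collagens fell as well: 8 of 13 tested fell, 0 rose and 5 did not pass (median log2 -1.39), where 16.6% of all genes fell, with 6 to 9 falling when 1 mouse was left out and 5, with 1 higher, under library totals. In a liver piece, fewer cells of a type and less RNA per cell cannot be told apart. Col3a1, a fibrillar collagen made by stellate cells and portal fibroblasts, was at 5.68, 6.45, 5.77 and 5.37 CPM in P133 mice and at 54.9, 41.1, 26.5, 59.1 and 14.4 CPM in untreated mice. The P133 mice were nearly alike and the untreated mice spread over a wide range without overlap, with mouse 5 lowest. The log2 change was -2.75 (SE 0.42, edgeR adjusted p = 0.00116). The basement membrane chains Col4a1 and Col4a2 fell by log2 -1.28 (SE 0.18) and -2.31 (SE 0.25), and Col5a2 by -2.19 (SE 0.47). Col1a1 was at 3.37, 3.73 and 4.44 CPM in P133 mice 1 to 3, at 40.0 CPM in P133 mouse 4, and at 7.09 to 24.7 CPM in untreated mice, and did not pass (log2 -0.39, SE 0.83). Without P133 mouse 4 it was lower by the same test (log2 -2.16, edgeR adjusted p = 0.00163). Of 17 other matrix genes tested, 3 fell and 1 rose. Those that fell were Sparc (46.1 to 63.4 against 83.2 to 182 CPM), Mmp2, a gelatinase (log2 -2.29, SE 0.43), and the procollagen protease Adamts2, and the protease inhibitor Timp3 rose (log2 0.88, SE 0.20). Up to 3 of the 17 rose when a mouse was left out, the most without untreated mouse 5. Of 14 stellate cell markers 2 rose and 2 fell, with a median log2 of 0.10. The summed level of the stellate list was 244 to 263 CPM in P133 mice and 217 to 266 CPM in untreated mice. Col3a1 in control-ASO livers was at 7.30 to 18.6 CPM, higher than at day 133 by log2 0.97 (SE 0.24, edgeR adjusted p = 0.00760).

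Of 23 secreted hepatocyte proteins, 10 fell, 0 rose and 13 did not pass (median log2 -0.73), where 16.6% of all genes fell. The falls numbered 9 to 12 when 1 mouse was left out. Library totals gave 5 lower and 4 higher (median -0.12 beside 0.59 for all genes). Albumin (Alb) was at 27639, 28001, 31018 and 25746 CPM in P133 mice and 78816, 52151, 35309, 69549 and 64209 CPM in untreated mice (log2 -1.09, SE 0.25, edgeR adjusted p = 0.00378). The groups did not overlap, and untreated mouse 3 came nearest. Fetuin-A (Ahsg) and transthyretin (Ttr) fell by log2 -1.79 (SE 0.23) and -1.36 (SE 0.27). The alpha 1-antitrypsin copies Serpina1a and Serpina1b fell by -2.22 (SE 0.23) and -3.27 (SE 0.27). Serpina1 genes are near-identical and how shared reads were counted is not given in the sources used here, so their single values are uncertain. Of 23 acute-phase and metallothionein genes, 6 fell and 0 rose (median log2 -1.64, and -0.39 without untreated mouse 5). This count was 3, 1, 2 and 2 without P133 mouse 1, 2, 3 and 4. Saa1 was at 322, 87.7, 114 and 60.8 CPM in P133 mice and did not pass (log2 -5.44, SE 2.18, edgeR adjusted p = 0.100), with -1.33 without untreated mouse 5. The protease inhibitor Serpina3n was at 54.8 to 71.6 CPM in P133 mice and at 220.5 to 289.8 CPM in untreated mice 1 to 4, with 1289.7 CPM in untreated mouse 5, and its change was -2.87 (SE 0.65), or -2.04 without that mouse.

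In the lists of hepatocyte metabolism, calls in each direction depended on the scaling, and the shares over all genes were 15.1% higher and 16.6% lower. Under library totals 6471 of all 15297 genes were higher and 821 lower, and list counts on that scale stand beside these. Among 26 genes of fatty acid oxidation, the rises numbered 8 and the falls 6 (median log2 0.26), against 13 and 1 under library totals. The mitochondrial dehydrogenase Acadm was at 129, 170.1, 85.8 and 182 CPM in P133 mice and 77.3 to 93.1 CPM in untreated mice (log2 0.76, SE 0.18, edgeR adjusted p = 0.00474). P133 mouse 3 lay within the untreated range and the other P133 mice above it. The mitochondrial trifunctional subunit Hadha, the dehydrogenase Acadl and the carnitine carrier Slc25a20 fell by log2 -1.32 (SE 0.20), -0.64 (SE 0.15) and -0.66 (SE 0.14). Of 20 urea cycle and amino acid genes, 10 fell and 1 rose (median -0.43). Library totals gave 3 higher and 3 lower (median 0.16 beside 0.59 for all genes). Those that fell included the peroxisomal aminotransferase Agxt (log2 -1.60, SE 0.16), serine dehydratase Sds (-1.47, SE 0.22) and argininosuccinate synthase Ass1 (-0.91, SE 0.14). The 1 rise, Asl, was at log2 0.40 (edgeR adjusted p = 0.0468), which reached 0.150 when a mouse was left out. Of 20 bile acid genes, 6 fell and 1 rose (median -0.42). The falls numbered 4 to 9 when a mouse was left out, and library totals gave 6 higher and 2 lower (median 0.18). The bile acid uptake carrier Slc10a1 was at 109 to 123 CPM against 181 to 312 CPM, and the reductase Akr1d1 at 31.9 to 42.5 against 80.3 to 126 CPM. In 23 glucose genes, 4 rose and 5 fell (median 0.01), shares near those of all genes, and library totals gave 11 higher and 2 lower. Ppp1r3b, a glycogen-targeting subunit of protein phosphatase, was at 211, 314, 329 and 241 CPM in P133 mice, 21.4 to 33.2 CPM in untreated mice 1 to 4 and 79.7 CPM in untreated mouse 5 (log2 2.85, SE 0.39, edgeR adjusted p = 0.000823). The phosphofructokinase Pfkl and Gapdh fell by log2 -1.95 (SE 0.18) and -1.20 (SE 0.14). Of 17 fatty acid synthesis genes, 2 rose and 4 fell, and 1 rose without P133 mouse 1, 2 or 4 or untreated mouse 1, 3 or 5. Library totals gave 2 higher and 1 lower. The lipogenic factor Srebf1 fell (34.5 to 65.3 against 96.2 to 177 CPM), and Mlxipl (ChREBP) rose (98.9 to 126 against 38.8 to 88.9 CPM).

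In the growth hormone axis, 3 of 14 genes rose and 4 fell (5 and 2 under library totals), the rises being 1 without P133 mouse 1, untreated mouse 1 or untreated mouse 4. Igf1 was at 457, 485, 433 and 575 CPM in P133 mice and at 862 to 1147 CPM in untreated mice (log2 -1.10, SE 0.15, edgeR adjusted p = 8.72e-05). The prolactin receptor Prlr and Igfals, which carries Igf1 in blood, fell by log2 -1.52 (SE 0.28) and -0.85 (SE 0.16). Of 22 male-biased liver genes, 4 fell and 1 rose, with a median log2 of -0.52 (7 fell without untreated mouse 5, and library totals gave 3 lower and 4 higher). The steroid dehydrogenase Hsd3b5 fell, at 55.2 to 76.6 CPM against 156 to 433 CPM. Of 19 tested female-biased genes, 2 rose and 0 fell, a share under the 15.1% of all genes. The median log2 of these 19 was -0.98, with 14 below 0 and 5 above it. Their summed level was 53.2 to 73.5 CPM in P133 mice and 65 to 883 CPM in untreated mice, highest in untreated mouse 1. Of the 19, 1 rose without P133 mouse 2 or 3 or untreated mouse 2 or 4, and 2 fell without untreated mouse 3. Library totals gave 4 higher and 0 lower for this list. Cyp2b10, which rose, was at 13.3 to 20.6 CPM against 0.468 to 6.66 CPM. By position along the liver lobule, 2 of 20 pericentral genes rose and 5 fell (3 fell without P133 mouse 4 or untreated mouse 3, and 8 without untreated mouse 5), and 3 of 17 periportal genes rose and 5 fell (3 fell without P133 mouse 1). Library totals gave 4 higher and 0 lower for the pericentral list and 8 higher and 1 lower for the periportal list, so most of the falls did not hold on that scale. Over all genes 16.6% fell, and library totals gave 6471 higher and 821 lower of all 15297 genes.

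Among stress and growth genes, Cdkn1a and Fos rose and the cell cycle gene Tyms fell, beside shares over all genes of 15.1% higher and 16.6% lower. Under library totals 6471 of all 15297 genes were higher and 821 lower. Of 19 p53 targets, 4 rose and 1 fell (median log2 0.66), 2 rose without untreated mouse 2, and library totals gave 11 higher and 0 lower. The cell cycle inhibitor Cdkn1a (p21) was at 21.7, 40.4, 20 and 5.69 CPM in P133 mice and at 0.468 to 4.41 CPM in untreated mice, and P133 mouse 4 was close to the untreated mice (log2 3.28, SE 0.63, edgeR adjusted p = 0.00553). Trp53inp1 rose by log2 1.22 (SE 0.21). Of 26 cell cycle genes, 7 fell and 0 rose (median log2 -0.82), with 4 falling without P133 mouse 4, 12 without untreated mouse 3, and 2, with 2 higher, under library totals. Thymidylate synthase (Tyms) was at 76.6 to 93.4 against 170.3 to 408 CPM (log2 -1.67, SE 0.21). The mitotic activator Cdc20 was at 0.887 to 2.1 CPM in P133 mice, 2.18 CPM in untreated mouse 3 and 9.90 to 12.9 CPM in the other untreated mice. Of 20 immediate early genes, 5 rose and 2 fell (9 and 0 under library totals), with Fos at log2 2.90, Klf6 at 1.49 (SE 0.25), Ier5 at 1.11 (SE 0.22) and Fosl2 at 1.02 (SE 0.22). In 16 endoplasmic reticulum stress genes, 3 rose and 3 fell (7 and 1 under library totals). The chaperone Hspa5 rose (1657 to 4599 against 787 to 1793 CPM, log2 1.42, SE 0.33) and the chaperone Calr fell (log2 -0.98, SE 0.20). Of 22 NRF2 targets, 3 rose, among them heme oxygenase Hmox1 at 3.90 to 8.37 against 1.40 to 1.89 CPM, and 3 fell, among them the ferritin chain Ftl1 at 561 to 669 against 1300.2 to 1603 CPM. Library totals gave 8 higher and 2 lower for that list. Of 23 interferon genes, 3 rose and 6 fell (5 and 3 under library totals), with Ifit1 at log2 -1.83 (SE 0.35), Ifi27 at 0.71 (SE 0.15) and Bst2 (tetherin) at 3.01.

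**Figure D5:**
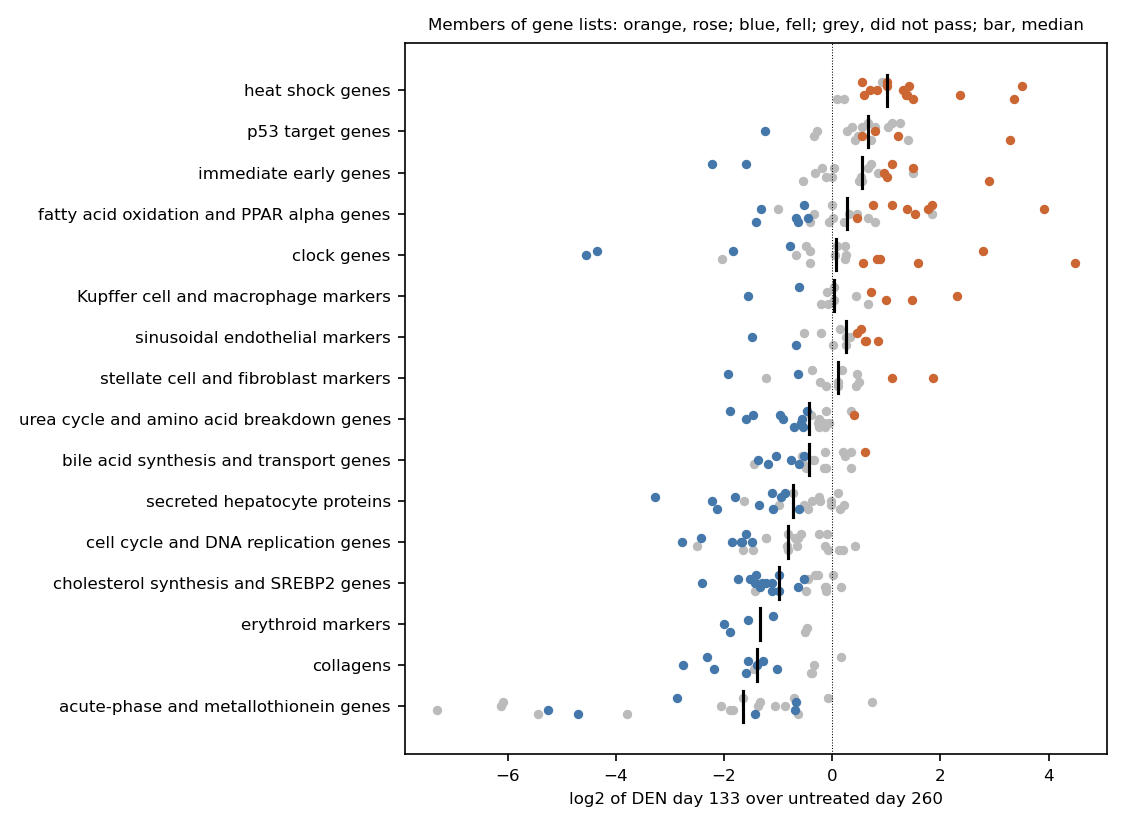
Log2 change of DEN day 133 over untreated livers for every tested member of 16 gene lists; dots are genes (orange rose, blue fell, grey did not pass) and bars are list medians. Heat shock genes had a median of 1.01, and collagens and cholesterol genes medians of -1.39 and -0.98.

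Markers of other liver cells were called in both directions, beside shares over all genes of 15.1% higher and 16.6% lower. Under library totals 6471 of all 15297 genes were higher and 821 lower. Of 14 sinusoidal endothelial markers, 5 rose and 2 fell, the rises being 2 without P133 mouse 1, and library totals gave 10 and 1. The scavenger receptor Stab2 was at 26.7 to 33.6 against 16.6 to 20.4 CPM, and the hyaluronan receptor Lyve1 at 2.88 to 4.42 against 8.42 to 10.4 CPM. Of 13 macrophage markers, 4 rose and 2 fell (8 and 1 under library totals), the rises numbering 3 to 6 when 1 mouse was left out. Marco, a Kupffer cell scavenger receptor, was at 10.3 to 20.5 against 1.45 to 5.92 CPM (log2 2.31, SE 0.37), lysozyme Lyz2 at 55.1 to 73.0 against 18.7 to 28.1 CPM, and the complement chain C1qb at 19.8 to 26.8 against 51.4 to 97.1 CPM. Of 6 tested erythroid markers, 4 fell (median log2 -1.33). The summed erythroid level was 1641 to 2307 CPM in P133 mice and 3566 to 8478 CPM in untreated mice, and its part in the other falls was not tested. Of 4 tested neutrophil markers 0 passed. Of 9 bile duct markers, Sox9 rose, and Krt8 and Spp1 fell. Of 6 tested lymphocyte markers, Cd4 rose and Cd79b fell, and the call of Cd79b was lost in 7 of the 9 fits that left out a mouse. Of 5 tested pancreas and fat cell markers, the fat genes Cfd, Plin1 and Adipoq rose. Cfd had 271 counts in P133 mice and 1 in untreated mice, a ratio of 486 (exact 95% counting interval 86.5 to 19264), and without P133 mouse 4 its log2 change was 7.24. Adipoq had 58 counts against 2, a ratio of 52.0 (counting interval 13.8 to 439.6), and its call was lost without P133 mouse 4 (log2 2.95, edgeR adjusted p = 0.101) and without any of untreated mice 1 to 5 (largest edgeR adjusted p = 0.129).

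Among the 24 genes with the largest rises and falls under the rule given below, several were set apart by their levels in the ASO-treated mice. Mug2, a murinoglobulin protease inhibitor, was at 163, 186, 193 and 175 CPM in P133 mice and at 4.05 to 11.7 CPM in untreated mice (log2 4.48, SE 0.26, edgeR adjusted p = 4.58e-07). It was at 8.92 to 28 CPM in control-ASO livers and at 175 to 262 CPM in Smyd3-ASO livers. The cathepsin Ctse was at 0 to 0.509 CPM in P133 mice and 8.02 to 20.9 CPM in untreated mice (log2 -5.84, and -6.62 without P133 mouse 2). It was at 4.74 to 14.6 CPM with control ASO and 0 to 0.427 CPM with Smyd3 ASO. C1s2, a complement C1s gene, had 1 count in all P133 mice and 608 in untreated mice, a ratio of 339 (exact 95% counting interval 60.6 to 13414). It was at 15.2 to 22.4 CPM with control ASO and 0 to 4.68 CPM with Smyd3 ASO. Serpina3c was at 14.9 to 19.9 CPM in P133 mice, 198 to 368 CPM in untreated mice, 45.9 to 117 CPM with control ASO and 3.89 to 18.3 CPM with Smyd3 ASO. On a scale of log2(CPM + 0.5), all 6 Smyd3-ASO mice lay nearer to the P133 median than to the untreated median for 7 of the 24 genes, and 0 of 6 for 2 genes. For control-ASO mice these numbers were 2 and 9 genes. In 3 genes, Mug2 and Ctse among them, all 6 Smyd3-ASO mice lay on the P133 side and all 6 control-ASO mice on the untreated side, and the reverse was found for 0 genes. ASO treatment and harvest day are joined in these groups, and what sets the levels was not tested.

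The other genes of that set had mixed levels. Snhg11, a small nucleolar RNA host gene, was at 14.4 to 18.9 CPM in P133 mice, 0.645 to 1.54 CPM in untreated mice, 0.752 to 6.67 CPM with control ASO and 5.49 to 12.7 CPM with Smyd3 ASO. Of these, 3 of 6 control-ASO mice and 6 of 6 Smyd3-ASO mice lay nearer to the P133 median. The 7SL RNA genes Rn7s1 and Rn7s6, near-identical copies whose counts are uncertain, rose by log2 3.38 (SE 0.38) and 3.64 (SE 0.45). Scand1, a zinc finger partner protein, was at 2.53 to 4.27 against 33.7 to 49.4 CPM (log2 -3.41, SE 0.19, edgeR adjusted p = 4.33e-08). The scaffold protein Gipc1 was at 0.316 to 1.47 against 10.1 to 15.8 CPM, and Mmd2 at 0.948 to 3.58 against 15.4 to 35.6 CPM. Prelid2 fell by log2 -3.77 (SE 0.90), or -2.97 without untreated mouse 5. The calcium-binding sperm protein gene Cabyr was at 53.2, 57.0, 5.77 and 99.7 CPM in P133 mice and at 1.78 to 15.1 CPM in untreated mice. Its groups overlapped, and its call (log2 3.44, edgeR adjusted p = 0.0291) was lost in 7 of the 9 fits that left out a mouse, at values of up to 0.0729. The metallothionein Mt1 was at 13.3 to 61.8 against 75.3 to 4411 CPM (log2 -5.25, SE 1.60, edgeR adjusted p = 0.0429). That call was lost without any of the P133 mice and without untreated mouse 1 or 3, and the change was -3.15 without untreated mouse 5. The pentraxin Apcs was at 29.7 to 44.0 against 175 to 3371 CPM (log2 -4.70, SE 1.15). Its call was lost without P133 mouse 2, 3 or 4 (edgeR adjusted p up to 0.0555), and its change was -3.05 without untreated mouse 5.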

How the data were processed

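Liver RNA was sequenced with a 3' end kit (QuantSeq 3' mRNA-Seq FWD), so 1 read stands for 1 transcript end. Per the submitters' processing notes, reads were handled with HISAT2 2.1.0, DESeq and the mm10 build; the counting program, annotation and strand handling are not given in the sources used here. The deposited raw counts per gene were the main data. The authors' deposited normalized table, treated as a score, equals the raw count times 1 factor per column (100% of values within 1) and served only as an alternative.

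Raw counts were tested with edgeR 4.0.16 (R 4.3.3; TMM, robust quasi-likelihood fit, two-sided) in the 2 groups compared, over 15297 genes, with Benjamini-Hochberg adjustment and a threshold of 0.05. Limma 3.58.1 and DESeq2 1.42.0 were alternatives. Control-ASO livers were compared with P133 livers in the same way. Depth was 4556484 to 6447397 counts in P133 and 10186780 to 13116012 in untreated mice; 3 counts equal 0.465 to 0.658 CPM in P133 and 0.229 to 0.294 CPM in untreated mice. Counting intervals cover counting error only. The scripts were tested on simulated data. Replicates are numbered biological replicates, and p-values measure only the spread between them.

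The members and gene lists were chosen with earlier results of these data known. Genes were named by rule: 4 marker genes and Smyd3, the 12 largest rises and 12 largest falls among genes whose average log2 CPM was 2 or more, and the 4 members with the smallest adjusted p in each of 37 lists. Other members, the clock, heat shock, cholesterol, collagen, acute-phase and tumour genes and the nuclear RNAs among them, were named after their values were seen. Some genes that meet this rule or belong to these lists are counted but not reported by name here.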

Additional observations from a re-analysis of the deposited data

Results flagged for a closer look

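In 49 of 388 groups of 4 or 5 mice tested, 1 mouse lay further from the others than Dixon's 95% critical value for its group. Chance flags about 1 in 20 groups when values are normally distributed and genes are independent and chosen in advance. These were CPM values of the named genes, many of them named after their values were seen. The 49 therefore cannot be set against that rate. Of the 49, 20 were untreated mouse 5, and 10 each were P133 mouse 1 and P133 mouse 4. Some flags rest on 1 count in the whole group: C1s2, Igf2bp3 and Cd79b in P133 mice and Cfd in untreated mice. That of Adipoq in untreated mice rests on 2 counts.

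Untreated mouse 5 stood apart from its group in Arntl at 1.6 CPM, Mt1 at 4411 CPM, Apcs at 3371 CPM, Dbp at 13 CPM and Prelid2 at 29.7 CPM. Untreated mouse 5 was also far from the rest for Hsd3b7 at 224 CPM, Ppp1r3b at 79.7 CPM, Serpina3n at 1289.7 CPM, Rhbg at 8.69 CPM and Mcm2 at 8.02 CPM. Untreated mouse 5 lay outside the others for Ecm1 at 26.3 CPM, S100a9 at 14.2 CPM, S100a8 at 18.2 CPM, Sqle at 62.7 CPM and Hmgcs1 at 497 CPM. Untreated mouse 5 differed from its group in Hsp90aa1 at 388 CPM, Saa1 at 30551 CPM, Saa2 at 45918 CPM, Lcn2 at 3235 CPM and Hp at 43957 CPM.

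P133 mouse 1 stood apart from its group in C1s2 at 0.21 CPM, Scand1 at 2.53 CPM, Cry1 at 31.4 CPM, Mvk at 11.2 CPM and Mlxipl at 126 CPM. P133 mouse 1 was also far from the rest for Fosl2 at 16.4 CPM, Lyve1 at 4.42 CPM, Hspa1b at 102 CPM, Ahsa1 at 135 CPM and Saa2 at 149.9 CPM.

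P133 mouse 4 stood apart from its group in Mt1 at 61.8 CPM, Dbp at 8.85 CPM, Igf2bp3 at 0.158 CPM, Timp3 at 32.2 CPM and Cd79b at 0.158 CPM. P133 mouse 4 was also far from the rest for Adipoq at 7.9 CPM, Nr1d2 at 64.1 CPM, Ciart at 5.37 CPM, Per3 at 16.7 CPM and Col1a1 at 40 CPM.

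Untreated mouse 3 stood apart from its group in Cfd at 0.156 CPM, Cabyr at 15.1 CPM, Pgk1 at 84.5 CPM, Cdc20 at 2.18 CPM and Adipoq at 0.312 CPM.

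P133 mouse 3 stood apart from its group in Hsd17b13 at 579.8 CPM and Ifi27 at 168 CPM.

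P133 mouse 2 stood apart from its group in Serpina1b at 4184 CPM.

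Untreated mouse 1 stood apart from its group in Hamp2 at 756 CPM.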

How the results depend on the processing

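Scaling by library totals gave 6471 higher and 821 lower genes in P133 over untreated livers, and 3855 higher and 985 lower in control-ASO over P133 livers. The other tools, filters and scalings tried on all mice gave 2003 to 2591 higher and 2203 to 2668 lower for P133 over untreated. Leaving out 1 mouse gave 1856 to 2336 higher and 2121 to 2611 lower, and for control ASO over P133 1650 to 2279 higher and 1439 to 2039 lower. Samples of the same number did not deviate together (correlations -0.0635 to 0.0361), so the numbers are not taken to pair mice. The fit with the replicate number as a block gave 2003 higher and 2355 lower for P133 over untreated, and 1396 higher and 1134 lower for control ASO over P133. Of 161 named genes past the threshold, 34 lost the call with library totals, 17 with all 4 groups in 1 fit and 8 with thinned counts. The number was 5 with the replicate block, 0 with DESeq2 and 3 to 12 when 1 mouse was left out. For some named genes or comparisons DESeq2 gave no adjusted p, and these could not be counted as lost. Many of the 161 were named for small adjusted p in the same data, so these losses do not describe all genes. For differences not listed here the cause was not tested. Leaving out untreated mouse 5 and P133 mouse 4 together, an alternative chosen after seeing the data, gave 1964 higher and 2272 lower. Depth limits genes near 3 counts a library.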
